A study of Mus musculus with 13 samples.

Results

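The interferon-inducible GTPases described here are 10 mouse genes: the guanylate-binding protein (GBP) genes Gbp2, Gbp3, Gbp4, Gbp5 and Gbp7, and the immunity-related GTPase (IRG) genes Irgm1, Irgm2, Igtp, Iigp1 and Tgtp1. The rule that chose them lists them by name and uses no measured value, but the list was made with earlier results of these data known. They come from the 34013 genes of the count table, and all 10 were found and passed the filter on low counts. Perivascular adipose tissue (fat around vessels) of C57BL/6 mice that had been given splenocytes was measured by bulk RNA sequencing. NTS-R received splenocytes of Nlrp3 KO donors with type 2 diabetes (T2DM, 3 libraries), TS-R of T2DM donors (4 libraries), NS-R of Nlrp3 KO donors (3 libraries) and WTS-R of WT donors (3 libraries). The genotype label reads Nlrp3 KO for NTS-R and NS-R and WT for TS-R and WTS-R. It does not say whether donor or recipient is meant, and the labels used here give neither age nor how diabetes arose. Nothing there says that the libraries of a group come from separate animals, so each p-value measures only the spread between these libraries.

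GBP and IRG proteins are dynamin-like GTPases that interferons, above all interferon gamma, induce from very low levels in most cell types. They gather on membranes that enclose intracellular bacteria and protozoa, help to open these, and so connect interferon to inflammasomes, the complexes that mature IL-1 beta. Among mouse IRG proteins, the regulators Irgm1, Irgm2 and Igtp sit on host membranes and keep the effectors, such as those of Iigp1 and Tgtp1, inactive there. Promoters of interferon-induced genes are known for the gamma-activated site (GAS) and for the interferon-stimulated response element (ISRE), which is bound by IRF1, IRF9 and related factors.

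Promoter sequence is shown because it uses no measured value of these data. The genes were listed as interferon-inducible, and the ISRE and GAS are known from such genes. The shares with a match are therefore a description and not a test. RefSeq promoters (build GRCm38.p6) were at hand for 8 of the 10 genes, and Gbp4 and Iigp1 are not shown. The ISRE was searched as GAAA, NN and GAAA without a gap, where N is any base, and the GAS as TTCNNNGAA, on both strands, in the 250 bases before the annotated start. Each window below runs 5′ to 3′ on the gene's strand and is cut 20 bases to each side of the ISRE match, or at the start where that is nearer. Capitals mark the ISRE match and, in the windows of Tgtp1, Igtp and Irgm2, the GAS match before it.
Gbp2, chr3:142620584-142620633, plus strand: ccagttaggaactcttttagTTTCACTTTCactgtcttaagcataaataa
Gbp3, chr3:142559979-142560034, plus strand: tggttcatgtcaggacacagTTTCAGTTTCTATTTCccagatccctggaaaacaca
Gbp5, chr3:142496749-142496798, plus strand: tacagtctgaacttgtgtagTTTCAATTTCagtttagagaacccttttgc
Gbp7, chr3:142530263-142530312, plus strand: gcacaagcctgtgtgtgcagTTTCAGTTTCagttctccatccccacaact
Irgm1, chr11:48871421-48871470, minus strand: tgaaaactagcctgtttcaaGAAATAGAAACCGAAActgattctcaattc
Irgm2, chr11:58214893-58214942, plus strand: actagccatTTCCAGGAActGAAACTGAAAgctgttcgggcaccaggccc
Igtp, chr11:58199502-58199551, plus strand: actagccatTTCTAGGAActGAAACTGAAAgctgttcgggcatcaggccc
Tgtp1, chr11:48992294-48992343, minus strand: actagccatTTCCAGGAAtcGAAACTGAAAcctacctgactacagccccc

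An ISRE match was found in 8 of these 8 promoters, against 936 of 27025 genes (3.46%) in the whole promoter table. The GBP genes carried it on the opposite strand, where it reads TTTC first, and the IRG genes on the gene's own strand. In Gbp3 and Irgm1 a pair of overlapping ISRE matches formed the capitals. The match lay 165 to 156 bases before the start in Gbp5, and in the other genes it ended nearer, as in Gbp2 (59 to 50 bases), Igtp (34 to 25 bases) and Tgtp1 (77 to 68 bases). A GAS match was found in 5 of the 8, against 2197 of the 27025 genes (8.13%). In Tgtp1, Igtp and Irgm2 the GAS match ended 2 bases before the ISRE match, inside a stretch the 3 promoters nearly share. Gbp5 and Gbp7 held GAS matches outside the windows shown. Among the other GBP and IRG genes 3 of 7 promoters held an ISRE match, and among genes of the type I interferon response 7 of 18. These are matches of letters, not sites at which binding was measured.

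Total counts ran from 14216706 in NTS-R replicate 3 to 37011122 in NS-R replicate 1. The summed level of 5 adipocyte markers was 3756 to 12982 CPM in the 13 libraries (CPM, counts scaled to a library total of 1000000), as the labelled tissue should hold. Other tissue was present too: T cell markers summed to 747 CPM in TS-R replicate 3, airway markers to 3145 and 6423 CPM in NS-R replicates 1 and 2, and skeletal muscle markers to 11479 CPM in TS-R replicate 1. Levels of Nlrp3 overlapped between the groups labelled Nlrp3 KO and those labelled WT: the gene was at 1.22, 0.483 and 0.352 CPM in NTS-R, 0.537, 1.35, 3.55 and 1.16 CPM in TS-R, 1.03, 0.456 and 1.36 CPM in NS-R and 0.601, 0.226 and 0.693 CPM in WTS-R.

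Before any comparison, 2 libraries stood apart for the GTPases: NTS-R replicate 1 and WTS-R replicate 1. The 10 genes summed to 4556 CPM in NTS-R replicate 1 and to 3231 CPM in WTS-R replicate 1. The next highest library was WTS-R replicate 3, with 756 CPM. The other NTS-R libraries had 271 and 331 CPM, the TS-R libraries 514, 575, 643 and 602 CPM, the NS-R libraries 555, 341 and 349 CPM, and WTS-R replicate 2 had 193 CPM. NTS-R replicate 1 and WTS-R replicate 1 took the first and second place among the 13 libraries for 10 of 10 genes, NTS-R replicate 1 being first for 7. WTS-R replicate 2 was last for 10 of 10. WTS-R thus held the lowest library as well as one near the top, and each comparison of the 10 genes below is given with and without these 2 libraries, as are the medians of the other lists. In bulk tissue, fewer cells of a type and less RNA per cell cannot be told apart.

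Among the GBP genes, values follow in the order of the replicate numbers. Gbp2, whose protein is lipid-anchored to membranes, was at 625, 43.5 and 42.1 CPM in NTS-R, 112, 77.5, 86.9 and 84.0 CPM in TS-R, 72.4, 65.5 and 53.6 CPM in NS-R and 494, 39.0 and 173 CPM in WTS-R. Apart from NTS-R replicate 1 and WTS-R replicates 1 and 3, its libraries lay within 39.0 and 112 CPM. Gbp3, another family member recruited to pathogen membranes, was at 326, 29.9 and 33.7 CPM in NTS-R, 71.0, 55.2, 64.7 and 54.4 CPM in TS-R, 96.8, 42.0 and 42.6 CPM in NS-R and 347, 28.9 and 87.5 CPM in WTS-R. Here NS-R replicate 1 was the highest of the other 11 libraries, at more than 2 times the remaining NS-R values. Gbp4 was at 334, 21.4 and 28.8 CPM in NTS-R, 39.9, 73.1, 87.3 and 42.4 CPM in TS-R, 53.3, 23.6 and 31.7 CPM in NS-R and 410.1, 11.7 and 56.6 CPM in WTS-R. The 2 high libraries lay 3.82-fold or more above the next for Gbp4, TS-R replicate 3.

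Gbp5, which in mouse macrophages promotes assembly of the NLRP3 inflammasome, was at 211, 11.7 and 10.4 CPM in NTS-R, 37.7, 34.8, 56.5 and 29.4 CPM in TS-R, 33.0, 17.3 and 19.5 CPM in NS-R and 178, 8.24 and 25.1 CPM in WTS-R. Without the 2 high libraries, the 4 TS-R libraries lay above both NTS-R and both WTS-R libraries for this gene. Gbp7, linked to assembly of the NADPH oxidase, was at 250.2, 21.9 and 29.7 CPM in NTS-R, 31.6, 41.1, 48.9 and 38.9 CPM in TS-R, 48.9, 27.1 and 29.1 CPM in NS-R and 225, 18.4 and 48.2 CPM in WTS-R. Its next value after the 2 high libraries was 48.9 CPM, so that 11 libraries lay within 18.4 and 48.9 CPM.

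**Figure D1:**
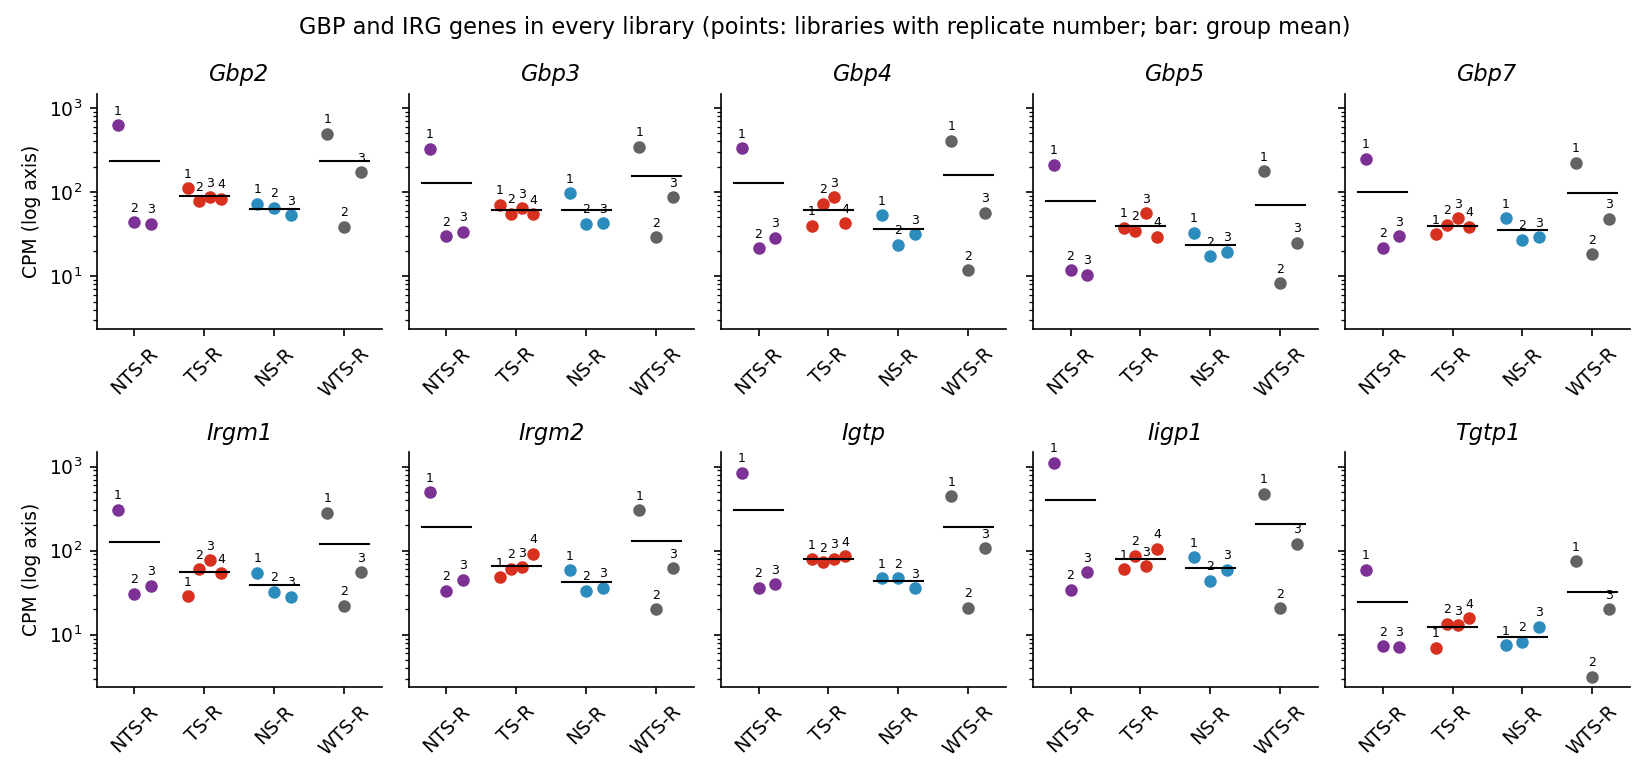
CPM of each of the 10 GTPase genes on a log axis, with 1 point per library, its replicate number beside it and a bar at the group mean, for NTS-R, TS-R, NS-R and WTS-R from left to right. NTS-R replicate 1 and WTS-R replicate 1 are the highest points of each panel and pull the bars of their groups above the other NTS-R libraries and above WTS-R replicates 2 and 3.

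The regulatory IRG genes behaved in the same manner. Irgm1, whose loss in mice impairs resistance to mycobacteria, was at 306, 30.9 and 38.4 CPM in NTS-R, 28.9, 60.4, 76.6 and 54.0 CPM in TS-R, 54.8, 32.6 and 28.2 CPM in NS-R and 283, 22.1 and 55.5 CPM in WTS-R. TS-R replicate 1 was as low for Irgm1 as the lower NS-R and NTS-R libraries. Irgm2 was at 493, 33.5 and 44.9 CPM in NTS-R, 48.4, 60.9, 63.9 and 92.2 CPM in TS-R, 58.1, 33.2 and 36.3 CPM in NS-R and 303, 20.2 and 62.3 CPM in WTS-R. After the 2 high libraries, TS-R replicate 4 came next for Irgm2. Igtp (Irgm3), found at the endoplasmic reticulum and on lipid droplets, was at 842, 36.2 and 40.1 CPM in NTS-R, 78.6, 72.5, 79.9 and 85.8 CPM in TS-R, 47.0, 47.1 and 36.0 CPM in NS-R and 443, 21.01 and 107 CPM in WTS-R. In TS-R Igtp spread least of the 10 genes, with a coefficient of variation of 6.86%, and its highest library over all groups was 40.1 times its lowest.

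The effector Iigp1 (Irga6), which coats the vacuole of Toxoplasma in mouse cells, was at 1109.6, 34.2 and 55.6 CPM in NTS-R, 59.9, 86.5, 65.7 and 106 CPM in TS-R, 83.2, 43.9 and 59.5 CPM in NS-R and 475, 20.7 and 121 CPM in WTS-R. That is a span of 53.7-fold from the highest to the lowest library, the widest of the 10, against 12.01-fold for Gbp3, the narrowest. Tgtp1 (Irgb6), also a vacuole-coating effector, was at 59.2, 7.31 and 7.24 CPM in NTS-R, 7.05, 13.5, 12.96 and 15.6 CPM in TS-R, 7.48, 8.26 and 12.5 CPM in NS-R and 74.6, 3.16 and 20.04 CPM in WTS-R. WTS-R replicate 1 was its highest library, and the lower NTS-R, TS-R and NS-R libraries lay close together. Its level is uncertain, since 73.1% of the 100-base stretches of its transcripts also occur in other genes, 70.3% in Tgtp2.

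Scaled to exon length, which allows genes to be compared, Igtp had a median over 13 libraries of 35.9 CPM per kilobase and Gbp2 of 30.8 CPM per kilobase. Gbp3 (16.9), Irgm2 (15.7), Iigp1 (11.3), Irgm1 (9.29), Gbp7 (6.92), Gbp4 (5.66), Gbp5 (4.43) and Tgtp1 (3.91 CPM per kilobase) followed. Within single libraries Gbp2 ranked 1 to 2, Igtp 1 to 3, Irgm2 3 to 5, Gbp4 and Gbp7 6 to 8 and Tgtp1 9 to 10. Ranks of Gbp3 (1 to 5), Iigp1 (3 to 7), Irgm1 (5 to 9) and Gbp5 (6 to 10) varied more. Igtp was first in 7 libraries, Gbp2 in 5 and Gbp3 in 1, while the last place went to Tgtp1 in 8 and to Gbp5 in 5. The range of each gene over libraries, such as 10.4 to 416 CPM per kilobase for Igtp and 3.55 to 191 for Iigp1, was wider than the gaps between neighbours. The 10 genes rose and fell together over libraries, so this range does not measure how firm their order was. Exons of Gbp4 overlap those of Gbp8 and Gbp9 on the same strand, those of Igtp overlap Irgm2, and those of Tgtp1 overlap Gm12185, so how reads were divided there is uncertain. Of the 100-base stretches, 10.01% of Gbp7, 5.16% of Igtp and 3.01% of Irgm2 occurred in another gene, and 0% of Gbp2, Irgm1 and Iigp1.

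**Figure D2:**
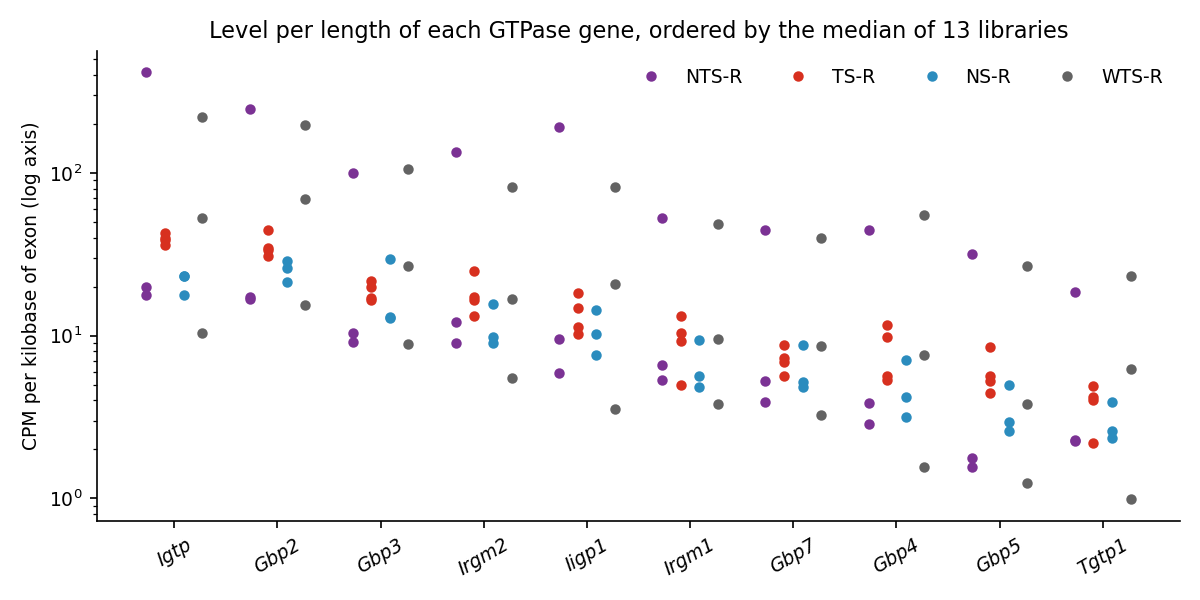
Level of each GTPase gene in CPM per kilobase of exon on a log axis, ordered by the median of 13 libraries from Igtp (35.9) to Tgtp1 (3.91), with 1 point per library and the groups NTS-R, TS-R, NS-R and WTS-R from left to right within a gene. The spread between libraries of a gene exceeds the step from a gene to its neighbour.

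The spread within groups was uneven. Over the 10 genes the coefficient of variation between libraries was 122% to 154% in NTS-R, 6.86% to 38.4% in TS-R, 14.8% to 52.1% in NS-R and 99.4% to 137% in WTS-R. The biological coefficient of variation that edgeR estimated was 0.704 (Gbp7) to 0.873 (Iigp1), at the 94.0 to 97.1 percentile of the tested genes, whose median was 0.316. NTS-R replicate 1 was 7.97-fold (Irgm1) to 20.99-fold (Igtp) above the next NTS-R library. WTS-R replicate 1 was 2.86-fold (Gbp2) to 7.25-fold (Gbp4) above WTS-R replicate 3, which in turn exceeded WTS-R replicate 2 for 10 of 10 genes. In NS-R, replicate 1 was highest for 8 of the 10 genes, with a median of 1.64-fold over the next library, and in TS-R replicate 1 was highest for 2, Gbp2 and Gbp3. Of 15305 genes with a mean of 1 CPM or more, replicate 1 was highest for 45.02% in NS-R and 35.88% in TS-R.

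A replicate 1 more than 2-fold above each other library of its group, in both NTS-R and WTS-R, was found for 10 of 10 GTPase genes, against 178 of 17270 tested genes (1.03%). These 2 libraries were singled out because the 10 genes were highest in them, so their count is a description and not a test. The same held for 19 of 23 genes of the type I interferon response and 9 of 15 other GBP and IRG genes. It held for 9 of 19 genes of the interferon gamma axis (among them Irf1, Nlrc5, Cxcl9 and Cd274). Of the conjugation list it held for 1 of 13 genes, and for 0 of 10 inflammasome genes. The conjugation list gene was Trim21, and no Atg gene of that list did so. In NS-R, where 3.2% of genes had replicate 1 more than 2-fold above the others, 1 of 10 GTPase genes did (Gbp3), while 13 of 23 type I genes did, such as Isg15 and Ifit1.

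The first comparison asks what loss of donor Nlrp3 changed when the donors were diabetic, in NTS-R against TS-R. The fitted differences were positive for 10 of 10 GTPase genes, from 1.19 (Gbp5) to 2.51 (Iigp1) on the log2 scale, with a median of 1.47 against -0.03 over all 17270 genes. None passed: edgeR's quasi-likelihood test called 0 of 10 at a Benjamini-Hochberg false discovery rate (FDR) under 0.05, with 0.0% of all tested genes called. DESeq2 also called 0 of 10, where it called 8.29% of all genes, and limma 0 of 10, where it called 9.48%. At an unadjusted p under 0.05 edgeR had 1 of 10 higher (Iigp1), where 5.59% of all genes were higher, and 0 lower, where 14.1% were. Iigp1 averaged 399.8 ± 615 CPM in NTS-R (SD, n = 3) and 79.5 ± 20.9 CPM in TS-R (n = 4), a fitted log2 difference of 2.51 (SE 1.05, edgeR FDR 0.216). For Igtp it was 2.14 (SE 0.99, edgeR FDR 0.255) and for Gbp5 1.19 (SE 0.99, edgeR FDR 0.545). The ranges of the groups overlapped for 10 of 10 genes, since NTS-R held both higher and lower libraries than TS-R; of all genes 1.07% lay wholly higher and 16.9% wholly lower.

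Without NTS-R replicate 1 and WTS-R replicate 1, an alternative chosen after these libraries were seen, the same comparison was negative for 10 of 10 genes. Values ran from -1.47 (Gbp5, SE 0.42) to -0.27 (Gbp7), with a median of -0.53, and edgeR still called 0 of 10 (lowest FDR 0.285, Gbp5). NTS-R replicates 2 and 3 then lay below all 4 TS-R libraries for 8 of the 10 genes, the exceptions being Irgm1 and Tgtp1, against 28.9% of all genes. Leaving out NTS-R replicate 1 alone also turned the sign of 10 of 10 genes.

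NTS-R against NS-R compares diabetic with non-diabetic donors when both lack Nlrp3. The difference was positive for 10 of 10 genes, from 1.10 (Gbp3) to 2.78 (Igtp), with a median of 1.75. By edgeR 0 of 10 were called, with 0.0% of all genes called, and likewise 0 by DESeq2 (1.21% of all genes called) and by limma (0.0695%). At an unadjusted p under 0.05 edgeR had 2 higher, Igtp and Iigp1, against 1.25% of all genes, and 0 lower, against 5.11%. Igtp averaged 306 ± 464 CPM in NTS-R and 43.3 ± 6.40 CPM in NS-R (SD, n = 3 each), a fitted log2 difference of 2.78 (SE 1.12, edgeR FDR 0.669). The groups overlapped for 10 of 10 genes, where 5.29% of all genes were wholly higher and 7.76% wholly lower. Without the 2 high libraries 9 of 10 differences were negative, from -0.94 (Gbp5) to 0.01 (Irgm2), with a median of -0.32. NTS-R replicates 2 and 3 were then below all NS-R libraries for Gbp2, Gbp3, Gbp5 and Tgtp1, 4 of 10 against 17.0% of all genes.

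TS-R against WTS-R compares diabetic with WT donors. It shares its TS-R libraries with the first comparison. Of the GTPase genes 10 of 10 were lower in the fit, from -1.68 (Gbp4) to -1.12 (Gbp5), with a median of -1.58 against 0.03 over all genes, and 0 of 10 were called by edgeR (0.0% of all genes called), DESeq2 (11.1%) or limma (22.1%). At an unadjusted p under 0.05 edgeR had 0 of 10 in either direction, where 15.2% of all genes were higher and 7.07% lower. Gbp3 averaged 61.3 ± 7.97 CPM in TS-R (SD, n = 4), against 155 ± 169 CPM in WTS-R (n = 3), a fitted log2 difference of -1.61 (SE 0.81, edgeR FDR 0.263). The TS-R libraries lay between WTS-R replicate 2 and WTS-R replicate 1 for 10 of 10 genes, and no gene had groups that did not overlap, against 19.2% of all genes wholly higher and 2.39% wholly lower. Without the 2 high libraries 6 differences were positive and 4 negative, with a median of 0.04. The highest was Gbp5 at 0.98 (SE 0.42, edgeR FDR 0.315), the gene whose TS-R libraries all exceeded WTS-R replicates 2 and 3, which 22.6% of all genes did.

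NS-R against WTS-R compares Nlrp3 KO with WT donors, both without diabetes, and shares WTS-R with the comparison before. Fitted values were negative for 10 of 10 genes, from -2.18 (Gbp4) to -1.41 (Gbp3), with a median of -1.72. By edgeR 0 of 10 were called (0.0% of all genes), by DESeq2 (1.1%) and limma (0.0811%) 0, and at an unadjusted p under 0.05 edgeR had 0 in either direction, where 4.92% of all genes were higher and 0.388% lower. Gbp4 averaged 36.2 ± 15.4 CPM in NS-R and 159 ± 218 CPM in WTS-R (SD, n = 3 each), a fitted log2 difference of -2.18 (SE 1.12, edgeR FDR 0.9997). The groups overlapped for 10 of 10 genes, where 7.78% of all genes were wholly higher and 4.02% wholly lower. Without the 2 high libraries 5 genes were positive and 5 negative, from -0.75 (Gbp2) to 0.45 (Gbp5), with a median of -0.02.

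**Figure D3:**
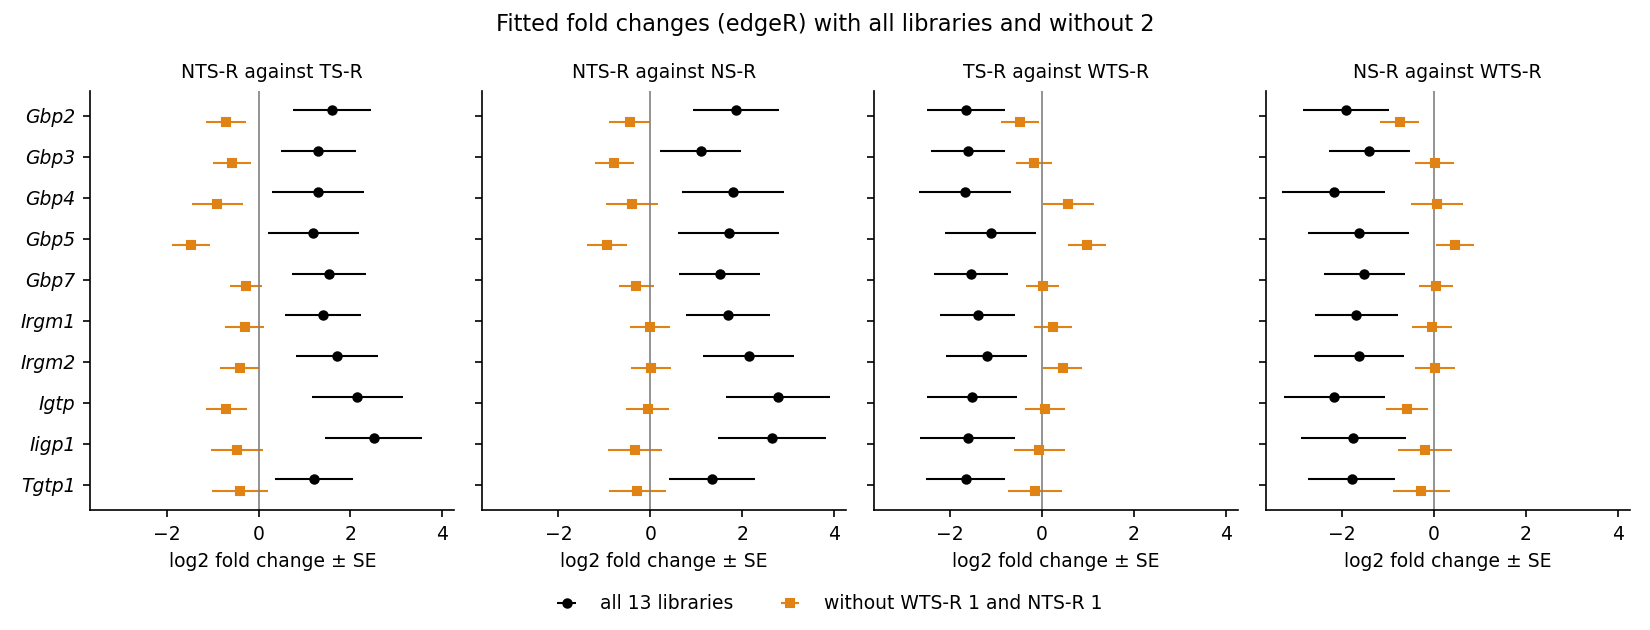
Fitted log2 fold changes (edgeR) of the 10 GTPase genes with their standard errors, for NTS-R against TS-R, NTS-R against NS-R, TS-R against WTS-R and NS-R against WTS-R. Black circles come from all 13 libraries and orange squares from the fit without WTS-R replicate 1 and NTS-R replicate 1, in which the 10 genes move to the other side of 0 in NTS-R against TS-R.

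The interaction asks whether the effect of donor diabetes differed with donor Nlrp3, as NTS-R minus NS-R less TS-R minus WTS-R. It was positive for 10 of 10 genes, from 2.71 (Gbp3) to 4.31 (Igtp, SE 1.48, edgeR FDR 0.173), with a median of 3.22 against -0.06 over all genes. By edgeR 0 of 10 were called (0.0% of all genes), although 9 of 10 had an unadjusted p under 0.05, where 4.7% of all genes were higher and 13.6% lower. DESeq2 (6.3% of all genes called) and limma (10.8%) also called 0 of 10, and the lowest adjusted p of any GTPase gene in any fit came here, 0.0655 for Igtp by DESeq2. Without the 2 high libraries, each of which enters this contrast with a positive sign, 9 of 10 values were negative, from -1.92 (Gbp5, SE 0.59) to 0.04 (Gbp2), with a median of -0.30.

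The other genes of the families were followed as a list of 17, of which 16 were in the table and 15 were tested. They too held most in NTS-R replicate 1 and WTS-R replicate 1, summing to 1226, 98.7 and 119 CPM in NTS-R, 185, 228, 340 and 233 CPM in TS-R, 193, 115 and 146 CPM in NS-R and 803, 87.2 and 212 CPM in WTS-R. By edgeR 0 of 15 passed the FDR in each of the 5 comparisons, where 0.0% of all genes did. Their median log2 difference was 1.11 in NTS-R against TS-R, 2.02 in NTS-R against NS-R, -0.74 for TS-R against WTS-R and -1.49 for NS-R against WTS-R. Without the 2 high libraries these medians became -1.06, -0.43, 0.48 and -0.10. The GBP genes Gbp2b and Gbp8 were unlike the 10, with their highest libraries in TS-R. Gbp2b was at 5.16, 1.24 and 0.844 CPM in NTS-R, 1.61, 6.22, 10.8 and 18.0 CPM in TS-R, 0.540, 2.05 and 1.004 CPM in NS-R and 1.86, 0.282 and 2.27 CPM in WTS-R. Its fitted log2 difference in TS-R against WTS-R was 2.41 (SE 0.91, edgeR FDR 0.146). Gbp10 was at 188, 2.62 and 2.32 CPM in NTS-R, 6.61, 5.61, 3.92 and 10.8 CPM in TS-R, 9.40, 3.59 and 1.59 CPM in NS-R and 52.9, 1.52 and 17.0 CPM in WTS-R. It gave 3.42 (SE 1.33, edgeR FDR 0.183) in NTS-R against TS-R, but -1.11 (SE 0.88, edgeR FDR 0.601) without the 2 high libraries. Irgq, an IRG relative that is not known to be induced by interferon, stayed within 20.7 and 37.4 CPM in the 13 libraries.

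Of the interferon gamma axis, the cytokine gene Ifng had 4, 0 and 6 reads in NTS-R, 2, 5, 19 and 8 reads in TS-R, 0, 2 and 1 reads in NS-R and 1, 0 and 4 reads in WTS-R, and it failed the filter. TS-R replicate 3, a library of 29325293 counts, had most Ifng reads. With 4 reads in NTS-R replicate 1 and 1 in WTS-R replicate 1, these reads are too few to rank the libraries. Ifngr1, a receptor gene, was at 167, 118 and 125 CPM in NTS-R, 149, 127, 131 and 132 CPM in TS-R, 110, 116 and 84.7 CPM in NS-R and 127, 104 and 132 CPM in WTS-R. The other receptor gene, Ifngr2, was at 21.6, 19.5 and 22.2 CPM in NTS-R, 20.8, 33.8, 53.4 and 26.0 CPM in TS-R, 24.9, 27.3 and 13.9 CPM in NS-R and 18.4, 17.7 and 27.4 CPM in WTS-R, highest in TS-R replicate 3. In neither receptor gene did both GTPase-rich libraries stand apart. The transcription factor gene Irf1 was at 178, 42.2 and 44.1 CPM in NTS-R, 62.0, 106, 114 and 57.4 CPM in TS-R, 59.7, 51.0 and 34.2 CPM in NS-R and 215, 24.8 and 49.5 CPM in WTS-R, with NTS-R replicate 1 and WTS-R replicate 1 on top. The chemokine gene Cxcl9 was at 209, 26.2 and 40.0 CPM in NTS-R, 29.7, 39.9, 47.3 and 44.8 CPM in TS-R, 23.7, 40.6 and 33.8 CPM in NS-R and 143, 28.1 and 61.4 CPM in WTS-R. Nlrc5, the transactivator of MHC class I genes, differed from the GTPases: it was at 142 CPM in NTS-R replicate 1, 148 CPM in TS-R replicate 3 and 107 CPM in WTS-R replicate 1. Ciita and Irf8 departed further, with TS-R replicate 3 highest. Ciita was at 152 CPM there, 14.5 CPM in NTS-R replicate 1 and 3.18 CPM in WTS-R replicate 1. Irf8 was at 288, 46.9 and 55.3 CPM in these libraries. For Ciita the fitted log2 difference in TS-R against WTS-R was 3.81 (SE 0.91, edgeR FDR 0.0624). As given above, 9 of the 19 tested genes, Irf8 among them, had replicate 1 over 2-fold above the rest in both NTS-R and WTS-R. Of the 19 tested genes edgeR called 0 in each comparison, where it called 0.0% of all genes. Their median log2 difference was 0.94 in NTS-R against NS-R and 0.11 in TS-R against WTS-R. These were -0.02 and 0.43 without the 2 high libraries.

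The 23 genes of the type I interferon response summed to 2505, 425 and 417 CPM in NTS-R, 794, 683, 957 and 625 CPM in TS-R, 1037, 608 and 489 CPM in NS-R and 3359, 442 and 903 CPM in WTS-R. Here NTS-R replicate 1 stood below WTS-R replicate 1, the reverse of the GTPase sum. Isg15, which encodes a ubiquitin-like protein, was at 97.0, 9.94 and 4.22 CPM in NTS-R, 19.2, 13.4, 22.3 and 13.2 CPM in TS-R, 37.6, 18.2 and 13.1 CPM in NS-R and 209.7, 10.9 and 28.4 CPM in WTS-R. Its fitted log2 difference in TS-R against WTS-R was -2.57 (SE 0.98, edgeR FDR 0.1502), and that of Irf7 was -1.87 (SE 0.90, edgeR FDR 0.243). Without the 2 high libraries they were -0.48 (SE 0.46, edgeR FDR 0.661) and -0.22 (SE 0.35, edgeR FDR 0.801). By edgeR 0 of 23 were called in each comparison, where 0.0% of all genes were. Medians were 0.86 in NTS-R against TS-R and -1.50 in TS-R against WTS-R. Both turned without the 2 high libraries, to -0.57 and 0.15.

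With all 13 libraries, the inflammasome and pyroptosis genes that act after GBP proteins ran the other way in the comparisons with TS-R. In NTS-R against TS-R 10 of 10 were negative, with a median of -1.30, and in TS-R against WTS-R 10 of 10 were positive, with a median of 1.43, and these comparisons share TS-R. By edgeR 0 of 10 were called in either, with 0.0% of all genes called. The cytokine gene Il1b was at 0.985, 0.552 and 0.563 CPM in NTS-R, 2.11, 4.53, 8.66 and 3.08 CPM in TS-R, 1.92, 3.13 and 1.83 CPM in NS-R and 0.481, 0.508 and 0.882 CPM in WTS-R, the TS-R libraries being above those of NTS-R and WTS-R. Of this list 5 of 10 genes lay wholly lower in NTS-R than in TS-R, where 16.9% of all genes did. In TS-R against WTS-R 4 of 10 lay wholly higher, where 19.2% of all genes did. The fitted log2 difference of Il1b was -2.40 (SE 0.49, edgeR FDR 0.105) in NTS-R against TS-R and 2.59 (SE 0.50, edgeR FDR 0.0624) in TS-R against WTS-R. Aim2, a DNA sensor, reached 44.1 CPM in TS-R replicate 3, with 3.59, 17.3 and 5.52 CPM in TS-R replicates 1, 2 and 4, against 0.904 to 2.49 CPM in NTS-R and WTS-R together. TS-R replicates 2 and 3 were highest of the TS-R libraries for Il1b and Aim2 and also for the 5 B cell markers, which summed to 34.6, 5.80 and 10.1 CPM in NTS-R, 21.8, 360.3, 1757 and 135 CPM in TS-R, 13.3, 12.8 and 17.3 CPM in NS-R and 8.65, 10.6 and 10.6 CPM in WTS-R. T cell and macrophage markers, given below, were highest in TS-R replicates 2 and 3 of that group too, and the part of these cells in the difference was not tested. Without the 2 high libraries the medians stayed at -1.61 and 1.64, while those of the GTPases moved to -0.53 and 0.04. Both sets were then negative in NTS-R against TS-R. Within NTS-R, replicate 1 was also the highest library for 10 of 10 inflammasome genes, 1.0007-fold to 2.52-fold over the next, with a median of 1.74-fold. Replicate 1 was the highest NTS-R library for 50.1% of 15305 genes with a mean of 1 CPM or more. Conjugation genes that load IRG and GBP proteins on vacuoles, such as Atg3, Atg5 and Atg7, gave 0 of 13 calls by edgeR, with 0.0% of all genes called. Their medians lay between -0.30 and 0.29 in the 4 comparisons of groups, or -0.33 and 0.34 without the 2 high libraries.

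The libraries richest in immune cell markers were not those richest in GTPase transcripts. The 8 T cell markers summed to 23.7, 9.80 and 8.86 CPM in NTS-R, 18.9, 298, 747 and 81.0 CPM in TS-R, 7.43, 11.8 and 19.0 CPM in NS-R and 6.19, 7.79 and 9.71 CPM in WTS-R. TS-R replicate 3, with the highest T cell sum, had 643 CPM of GTPase transcripts against 514 CPM in TS-R replicate 1, and WTS-R replicate 1, with 3231 CPM of GTPase transcripts, had the lowest T cell sum of the 13. The 6 macrophage and monocyte markers summed to 415, 284 and 234 CPM in NTS-R, 410, 867, 2175 and 578 CPM in TS-R, 501, 985 and 266 CPM in NS-R and 431, 250 and 600 CPM in WTS-R. NTS-R replicate 1 and WTS-R replicate 1 were thus inside the range of the others. The 7 natural killer and cytotoxic markers summed to 10.2, 3.45 and 5.84 CPM in NTS-R and 4.87, 3.56 and 7.12 CPM in WTS-R. They summed to 9.83 to 59.2 CPM in TS-R and 4.19 to 7.44 CPM in NS-R. Within NTS-R, replicate 1 had the highest sums of T cell, B cell, macrophage and natural killer markers. WTS-R replicate 1 had the highest sum of its group for none of these. The part of these cells in the GTPase levels was not tested. The 5 endothelial markers summed to 589 to 709 CPM in NTS-R, 565 to 786 CPM in TS-R, 635 to 847 CPM in NS-R and 594 to 680 CPM in WTS-R, with no library apart.

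**Figure D4:**
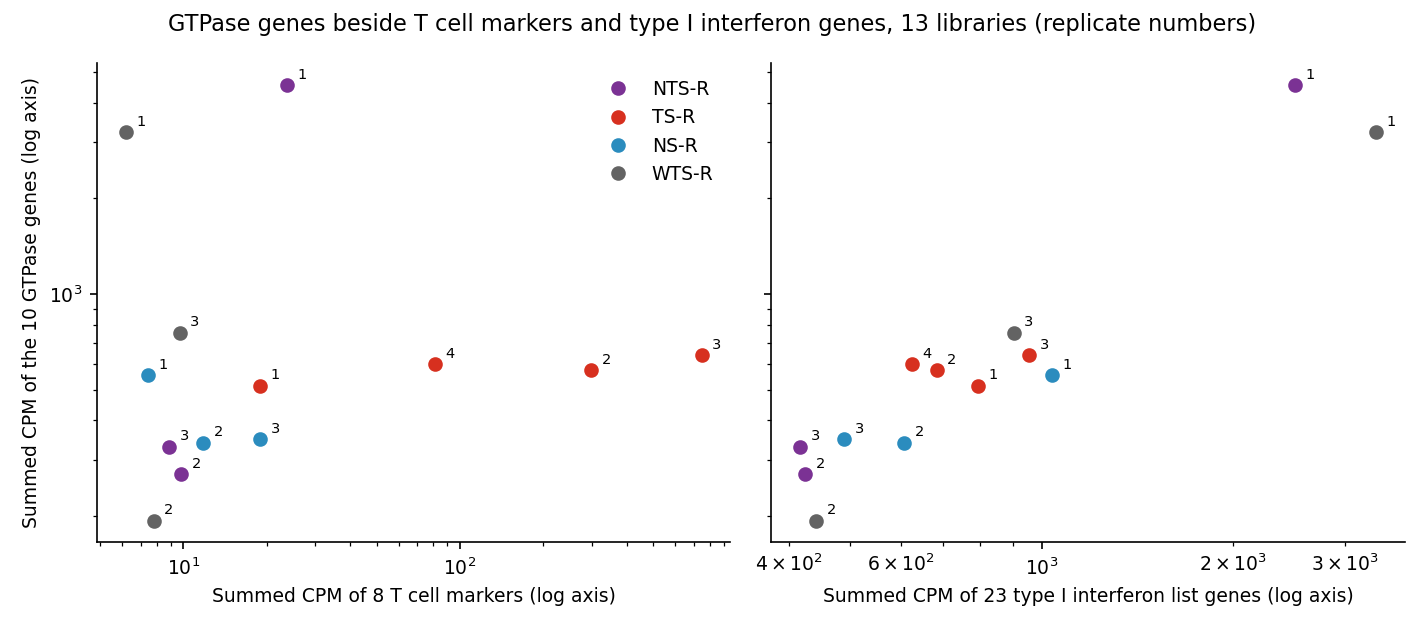
Summed CPM of the 10 GTPase genes in each of the 13 libraries (vertical, log axis) beside the summed CPM of 8 T cell markers (left, log axis) and of the 23 genes of the type I interferon response (right, log axis), with replicate numbers and colours for NTS-R, TS-R, NS-R and WTS-R. NTS-R replicate 1 (4556 CPM) and WTS-R replicate 1 (3231 CPM) have T cell sums of 23.7 and 6.19 CPM, while TS-R replicate 3 reaches 747 CPM of T cell markers at 643 CPM of GTPases.

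The 2 high libraries were not alike in all genes. Set against WTS-R replicate 1, NTS-R replicate 1 had 2.34 times as much Iigp1, 1.90 times as much Igtp and 1.63 times as much Irgm2. Gbp2 (1.26), Gbp5 (1.19), Gbp7 (1.11) and Irgm1 (1.08) had ratios closer to 1, and Gbp3 (0.94), Gbp4 (0.81) and Tgtp1 (0.79) had less in NTS-R replicate 1. The median ratio of the 10 genes was 1.15, against 1.06 over 15068 genes with a mean of 1 CPM or more. Other GBP and IRG genes had a median ratio of 1.96, with 12 of 16 above 1 and the highest at 4.16 for Gbp8, and the interferon gamma axis 1.32, with 17 of 20 above 1. The type I response had a median of 0.828, with 5 of 23 above 1. Each ratio compares a single library with a single library and has no replicate check.

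**Figure D5:**
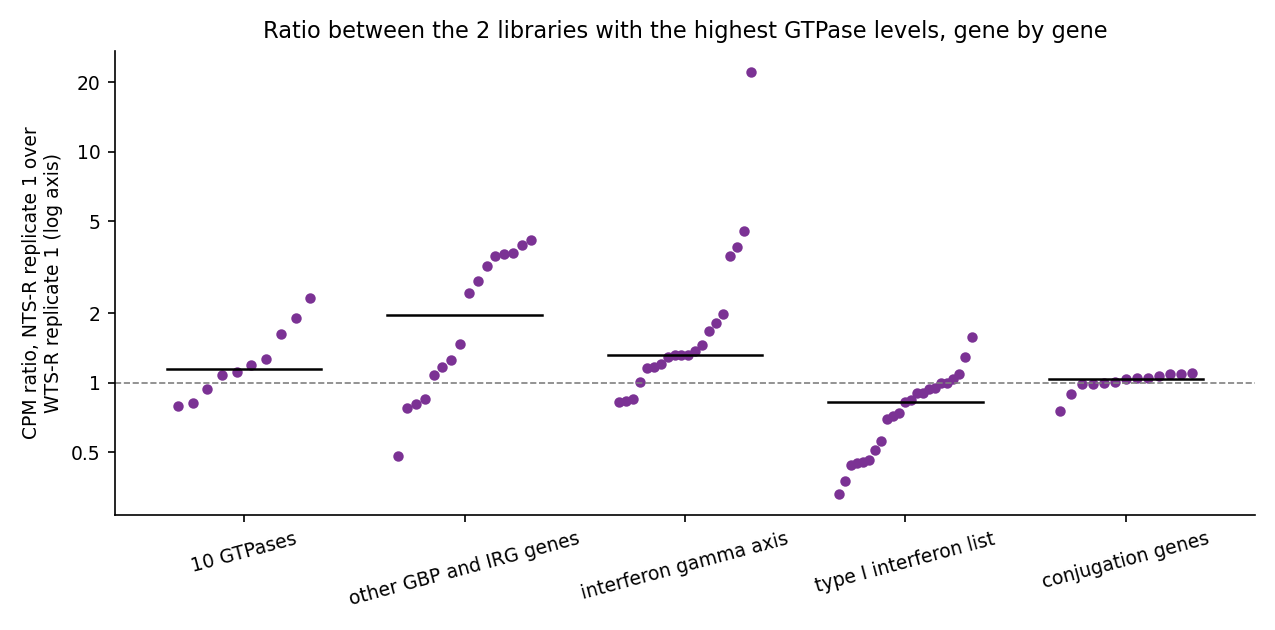
Ratio of CPM in NTS-R replicate 1 over WTS-R replicate 1 on a log axis, with 1 point per gene and a bar at each list's median, for the 10 GTPases, the other GBP and IRG genes, the interferon gamma axis, the type I interferon list and the conjugation genes. Medians lie at 1.15, 1.96, 1.32, 0.828 and 1.04, and the dashed line marks equal levels.

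As for genes with the most similar pattern, likeness was measured as Pearson's r over libraries between log2(CPM + 0.5) of a gene and the mean of the standardised levels of the 10 GTPases. Over 13 libraries the 10 highest were Gm4951, Batf2, Cd274, Ifi204, Parp9, Ifi47, Parp10, Gbp6, Irf7 and Gm12250, with r from 0.947 to 0.984. Because 2 libraries stand far from the rest, the r within the other 11 says more: it was 0.976 for the IRG gene Gm4951, 0.936 for the IRG gene Ifi47, 0.909 for Cd274, which encodes the ligand PD-L1, and 0.901 for Batf2. It was 0.742 for Gbp6 and 0.735 for Irf7. Gm4951 was at 76.9, 1.86 and 2.95 CPM in NTS-R, 5.10, 5.95, 8.70 and 6.17 CPM in TS-R, 7.78, 2.85 and 3.31 CPM in NS-R and 31.4, 1.36 and 7.56 CPM in WTS-R. Between the 10 genes themselves, the 45 pairs had r from 0.533 (Gbp3 with Tgtp1) to 0.943 (Gbp4 with Gbp7) over the 11 libraries, with a median of 0.787. The closest partner was Gbp7 for Gbp3, Gbp4 and Irgm1, Gbp4 for Gbp5 and Gbp7, Igtp for Gbp2, Gbp2 for Igtp, Irgm2 for Iigp1, and Iigp1 for Irgm2 and Tgtp1. The genes were ranked by this r, so it is a description without a test, and libraries share depth and tissue content in it.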

How the data were processed

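Bulk RNA sequencing of perivascular fat was deposited as whole-number counts per gene, 1 column per library (13 libraries, 34013 gene identifiers, of which 33302 were matched to symbols and 711 were not). The authors made these counts with HISAT2 and featureCounts, per the submitters' processing notes; for the versions, the genome build, the annotation and the strand the entry is: not given in the sources used here. RNA was extracted with TRIzol and checked for integrity, and an ABclonal kit made the paired-end mRNA libraries, per the labels' protocols. Without a stated strand, reads of overlapping opposite-strand genes cannot be told apart.

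CPM were computed from each library's total counts. Per kilobase levels divide CPM by the merged exon length of GENCODE vM21 genes, and the 100-base stretches were compared between its transcripts. Promoters come from a RefSeq table (GRCm38.p6). All 13 libraries entered a single edgeR 4.0.16 quasi-likelihood fit (R 4.3.3, TMM, filterByExpr by group, 17270 genes tested), and a gene was called where its FDR (Benjamini-Hochberg, over all genes tested) was under 0.05. The SE is the log2 fold change divided by the square root of its F statistic. The common biological coefficient of variation was 0.389. Alternatives were DESeq2 1.42.0, limma 3.58.1 with voomWithQualityWeights, RLE size factors, no filter on low counts and only the groups compared. Male libraries alone were also fitted, without NS-R replicate 3 and TS-R replicate 3, the 2 libraries with high Xist. Further alternatives were the replicate number as a block and each library left out in turn. Leaving out both NTS-R replicate 1 and WTS-R replicate 1 was chosen after the data were seen.

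The members and lists were chosen with earlier results of these data known. Named are the 10 genes, 11 preset genes of the lists, up to 2 further genes per list and comparison with the smallest unadjusted p, and the 10 genes of most similar pattern. Gbp8, Irf8, Irgq, Trim21, Ifit1 and the genes given as examples of a count were named after their values were seen. A preset gene is not reported here. Sets were described by counts and medians, with no set test. The limit that a count of 0 allows, 3 counts, equals 0.0811 CPM in the deepest and 0.211 CPM in the shallowest library and covers counting error only.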

Additional observations from a re-analysis of the deposited data

Results flagged for a closer look

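Of 21 genes checked in TS-R, the 10 GTPases and 11 named genes of the lists, Casp4 had 1 library apart from the others. Casp4, which encodes the caspase that senses cytosolic lipopolysaccharide, reached 34.0 CPM in TS-R replicate 3, with 13.1, 16.6 and 14.2 CPM in TS-R replicates 1, 2 and 4, so that the gap to the next library made up 0.831 of the range of the 4. Chance flags about 1 group in 20. TS-R replicate 3 also had the highest sums of T cell (747 CPM) and macrophage (2175 CPM) markers, and their part in this value was not tested. None of the 10 GTPases was flagged in TS-R. The groups with 3 libraries, which hold NTS-R replicate 1 and WTS-R replicate 1, are too small for this check.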

How the results depend on the processing

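Members called stayed at 0 of 10 in each comparison under all 21 other settings. Of their 50 fold changes, 0 changed sign with DESeq2, limma, RLE size factors, no filter on low counts, male libraries or only the groups compared (which gives no interaction value). Limma's medians were smaller, 0.51 in NTS-R against TS-R, with 0.76 in NTS-R against NS-R. Leaving out 1 library changed 30 of 650 signs: 19 without NTS-R replicate 1, 11 without WTS-R replicate 1 and 0 without any other. The cause was not tested.

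Without both, chosen after seeing the data, 39 of 50 turned. These log2 values follow, with the range over leaving out 1 library in turn in brackets where it crossed 0. In NTS-R against TS-R they were Gbp2 -0.71 (-0.71 to 2.09), Gbp3 -0.58 (-0.58 to 1.76), Gbp4 -0.90 (-0.90 to 1.79), Gbp5 -1.47 (-1.47 to 1.70), Gbp7 -0.27 (-0.27 to 2.01), Irgm1 -0.30 (-0.30 to 1.86), Irgm2 -0.41 (-0.41 to 2.20), Igtp -0.70 (-0.70 to 2.67), Iigp1 -0.48 (-0.48 to 3.05) and Tgtp1 -0.41 (-0.41 to 1.64). In NTS-R against NS-R they were Gbp2 -0.45 (-0.45 to 2.35), Gbp3 -0.78 (-0.78 to 1.56), Gbp4 -0.39 (-0.39 to 2.30), Gbp5 -0.94 (-0.94 to 2.22), Gbp7 -0.30 (-0.31 to 1.98), Irgm1 -0.011 (-0.012 to 2.15), Igtp -0.056 (-0.057 to 3.31), Iigp1 -0.34 (-0.34 to 3.19) and Tgtp1 -0.28 (-0.28 to 1.76). In TS-R against WTS-R they were Gbp4 0.57 (-2.23 to 0.57), Gbp5 0.98 (-1.64 to 0.98), Gbp7 0.0093 (-2.04 to 0.0096), Irgm1 0.24 (-1.89 to 0.24), Irgm2 0.45 (-1.72 to 0.45) and Igtp 0.065 (-2.06 to 0.065). In NS-R against WTS-R they were Gbp3 0.014 (-1.90 to 0.015), Gbp4 0.066 (-2.74 to 0.066), Gbp5 0.45 (-2.17 to 0.45), Gbp7 0.042 (-2.01 to 0.042) and Irgm2 0.020 (-2.14 to 0.020). In the interaction they were Gbp3 -0.60, Gbp4 -0.97, Gbp5 -1.92, Gbp7 -0.31, Irgm1 -0.25, Irgm2 -0.43, Igtp -0.12, Iigp1 -0.28 and Tgtp1 -0.13.

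The labels do not say whether equal replicate numbers pair libraries, and correlations from 3 or 4 libraries a group cannot decide it. The 18 same-number pairs had correlations of -0.229 to 0.282, 6 of them over 0.1, and 5 of 13 libraries correlated best with their own number. NTS-R replicate 1 and WTS-R replicate 1 correlated at 0.181. With the number as a replicate block, Gbp5 turned to 0.26 in TS-R against WTS-R, and Gbp4 to -0.23 and Gbp5 to -0.31 in NTS-R against TS-R. The medians of the 10 genes became 0.61 in NTS-R against TS-R, 0.85 in NTS-R against NS-R, -0.63 in TS-R against WTS-R, -0.96 in NS-R against WTS-R and 1.59 for the interaction. Of 30 list medians, 19 moved by more than their median SE without both high libraries and 5 with the block.

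Over all genes, 0 were called in each comparison, and this count moved. NTS-R against TS-R gave 1429 (DESeq2), 1638 (limma), 404 (no filter), 76 (block) and 0 to 1018 with 1 library left out. NTS-R against NS-R gave 208, 12 and 126 with the first 3 of these, 5 with only the groups compared, 758 with male libraries and 0 to 563. TS-R against WTS-R gave 1906, 3816, 889, 784 (block), 50 (male libraries) and 0 to 1906. NS-R against WTS-R gave 190, 14, 138, 674 (male libraries) and 0 to 503. For the interaction it was 1086, 1872, 92, 19 (block), 401 (male libraries) and 0 to 517. The highest counts with 1 library left out came without TS-R replicate 1 (1018 in NTS-R against TS-R, 1906 in TS-R against WTS-R, 517 for the interaction) and without NS-R replicate 3 (563 and 503 in the comparisons with NS-R, 298 for the interaction). Without TS-R replicate 4 they were 880, 1238 and 71, and at most 5 when replicate 3 of TS-R or of WTS-R was dropped. With 3 or 4 libraries a group and this spread, a missing call does not show that a difference was absent.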
